A study of Mus musculus with 6 samples.

Results

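The replication-dependent histone gene clusters were examined in the ATAC-Seq comparison of primary mouse embryonic fibroblasts with and without HAT1, the acetyltransferase that modifies newly made H4 before it is placed on replicated DNA. A site, one interval of open chromatin in the deposited table, was counted as a member when its midpoint lay in 1 of 4 windows of the mm10 genome, and 165 of the 229903 listed sites did. The major cluster, Hist1, was covered by a centromere-proximal window on chromosome 13 from 21.70 to 22.05 Mb (90 sites) and a telomere-proximal window from 23.52 to 23.78 Mb (56 sites). Hist2 lies on chromosome 3 from 96.22 to 96.28 Mb (15 sites) and Hist3 on chromosome 11 from 58.94 to 58.97 Mb (4 sites). The 500 kb on each side of each window, without the windows themselves, held 518 flank sites.

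The cells were the first cultures grown from mid-gestation embryos of the C57bl6 strain background, kept in DMEM medium with serum and antibiotics and given no treatment. The labels name 3 lines as HAT1 WT (HAT1+/+) and 3 as HAT1 KO (HAT1-/-), a complete knockout in every cell type. Transposase loaded with sequencing adaptors was put on isolated nuclei, so that the reads at a site follow how open it is, and the level of a site is given here in mean normalized reads of a genotype. Only these genotype means were used, and the authors' own test columns were not, so no spread between lines, no SE and no test stands behind any difference below, and a single deviating line could not be seen. All differences are HAT1-/- minus HAT1+/+ on the log2 scale, so a negative value means a lower level without HAT1. The site at the start of Hat1 had 206.5 reads in HAT1+/+ and 238.9 in HAT1-/- cells (0.21), and a promoter site does not check the deletion. In bulk chromatin, fewer cells with an open site and a less open site in each cell cannot be told apart.

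Most of the histone protein that packages new DNA in S phase comes from these clusters. Their genes are short, mostly lack introns, end in a stem-loop instead of a poly(A) tail, and are switched on together when a cell enters S phase by NPAT, a target of cyclin E and CDK2. Genes of H2A and H2B are often arranged head to head around one shared promoter. The Hist1 region of mammals also carries many transfer RNA (tRNA) genes, which RNA polymerase III reads from promoter boxes inside the gene.

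The clusters are made of repeated parts, and the sequences below show the parts that the results turn on. The first is the shared promoter of Hist1h2ac and Hist1h2bc, the histone gene starts with the highest level per kb of site. It is printed from the H2A side at chr13:23683960-23684198 (mm10, plus strand, 239 bases), between the stretches that GENCODE or RefSeq counts as transcribed. Capitals mark matches, on either strand, to the CCAAT box, the TATA box with the letters TATAAA, and the octamer, which reads ATGCAAAT.
Hist1h2ac to Hist1h2bc: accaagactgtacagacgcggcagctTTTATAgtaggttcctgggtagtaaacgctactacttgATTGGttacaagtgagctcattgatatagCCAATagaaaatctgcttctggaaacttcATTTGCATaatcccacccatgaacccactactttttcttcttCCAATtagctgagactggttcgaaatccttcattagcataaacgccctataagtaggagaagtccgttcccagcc
The second stands for a stretch of the centromere-proximal window that occurs in 2 inverted copies. The same 167 bases lie between Hist1h2ao and Hist1h2bq at chr13:21810200-21810366 (minus strand) and between Hist1h2ap and Hist1h2br at chr13:21833576-21833742 (plus strand), and the capitals mark CCAAT boxes.
Both copies: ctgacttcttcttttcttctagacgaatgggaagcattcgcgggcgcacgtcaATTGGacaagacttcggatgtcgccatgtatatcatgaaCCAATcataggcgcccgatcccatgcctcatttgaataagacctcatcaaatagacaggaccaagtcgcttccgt
The third set holds the tRNA genes at the 3 tRNA sites with the lowest differences in the windows, with the core of the internal B box (GTTCGA or GTTCAA) in capitals.
n-TDgtc11, chr13:21911313-21911384, plus strand: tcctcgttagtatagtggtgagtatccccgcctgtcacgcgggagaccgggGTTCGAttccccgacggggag
n-TSaga8, chr13:21940914-21940995, minus strand: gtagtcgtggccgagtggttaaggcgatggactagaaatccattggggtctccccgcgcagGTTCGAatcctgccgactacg
n-TKttt22, chr13:21971788-21971860, plus strand: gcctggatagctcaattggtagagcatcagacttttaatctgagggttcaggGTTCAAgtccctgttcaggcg

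These sequences came from the RefSeq GRCm38.p6 genome, the assembly of mm10. The windows hold 65 histone genes, 63 of them protein-coding and 2, Hist1h2aj and Hist3h2bb-ps, annotated as pseudogenes. Of the 65, 58 had a 300-base promoter in the RefSeq table, and 50 of the 58 (86.2%) held a CCAAT box on either strand, against 37.9% of 27025 promoters of all genes. The split by class was uneven. All 16 H2A, 15 H2B, 10 H3 and 6 H1 promoters held the box, whereas 3 of the 11 H4 promoters did. A TATA box was found in 32 of the 58 (55.2%, all promoters 14.2%), with 8 of the 11 H4 promoters among them. The octamer was found in 11 of the 58 (all promoters 1.75%), 6 in H2A and 5 in H2B genes. Head-to-head H2A and H2B genes share much of these 300 bases, so that one box can count for both genes. Between the starts of the 13 head-to-head pairs, the octamer was found in 6. The motif AAACACA, known from H1 promoters, was found in 5 of the 6 H1 promoters and in 7.14% of all promoters. The stem-loop was searched on the strand of each gene, from its start to 300 bases past its end. In some long gene models, such as that of Hist1h2bc, the match lay well before the annotated end. A stem of 6 paired bases starting with GG, around a loop of TTT and any base, was found in 60 of the 65 genes. The form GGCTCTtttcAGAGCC, with the stem in capitals, was the form in 41 of them, and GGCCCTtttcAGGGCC and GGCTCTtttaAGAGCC were the forms in 7 each.

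Pooled, the windows held 235.7 sites per Mb, against 129.5 per Mb in their flanks, and the median member had 35.3 normalized reads in HAT1+/+ and 30.9 in HAT1-/- cells. The median HAT1+/+ level of the members lay at the 79.1th percentile of all sites, and that of the 64 members within 500 bp of a histone gene start lay at the 89.2th. Among sites at protein-coding starts alone, the latter median lay lower, at the 37.1th percentile. Hist1 centromere-proximal had 257.1 sites per Mb against 56.0 in its own flanks, Hist1 telomere-proximal had 215.4 against 123.0 and Hist2 had 250.0 against 177.0. Hist3 was sparser than its flanks, with 133.3 against 162.0. The site with the highest HAT1+/+ level in any window, 367.1 reads in HAT1+/+ and 357.1 in HAT1-/- cells (-0.04), covers the start and most of Hist1h1c, a linker histone gene.

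The median difference of the members was -0.17. Of the 165, 122 (73.9%) were lower, 42 were higher and 1 was equal, while over all sites of the table the median was -0.06 and 55.0% were lower. The 42 include 6 sites at the lowest value of the table in both genotypes, which have a fixed difference of 0.18. Summed over the members, HAT1-/- cells kept 90.4% of the HAT1+/+ reads, against 94.8% over all sites and 91.7% over the flanks. The flanks had a median of -0.12, with 63.1% of sites lower. This order did not hold window by window. With all sites counted, the Hist1 centromere-proximal window had -0.24 against -0.25 in its own flanks, the telomere-proximal window -0.145 against -0.23 and Hist2 -0.08 against -0.12. Only Hist3, with 4 sites, then lay lower, at -0.145 against -0.03. Without its 6 sites at the lowest value, the centromere-proximal window had -0.27, also below its flanks, which had no such site. Without tRNA sites, the pooled medians were -0.11 in the windows and -0.095 in the flanks. Large differences were not the pattern. At or below -0.58, the cutoff the study used for its domains of lost accessibility, lay 21 members (12.7%), and this share is under the background of 15.0% for all sites. That background is not matched by level, and sites with few reads spread more widely. From 16 to 32 mean reads of both genotypes, the 5th percentile was -0.67 for members and -0.91 for all sites. From 32 to 64 it was -0.695 against -0.80, and from 128 upward -0.37 against -0.38. At or above 0.58 lay 2 members, where the background is 10.1%. A single member was at or below -1 (background 5.11%) and 2 were at or above 1 (background 2.82%). The mean of 25 consecutive sites, the measure from which such domains were defined, ran from -0.41 to 0.09 across the members and did not reach the cutoff at any of them.

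**Figure D1:**
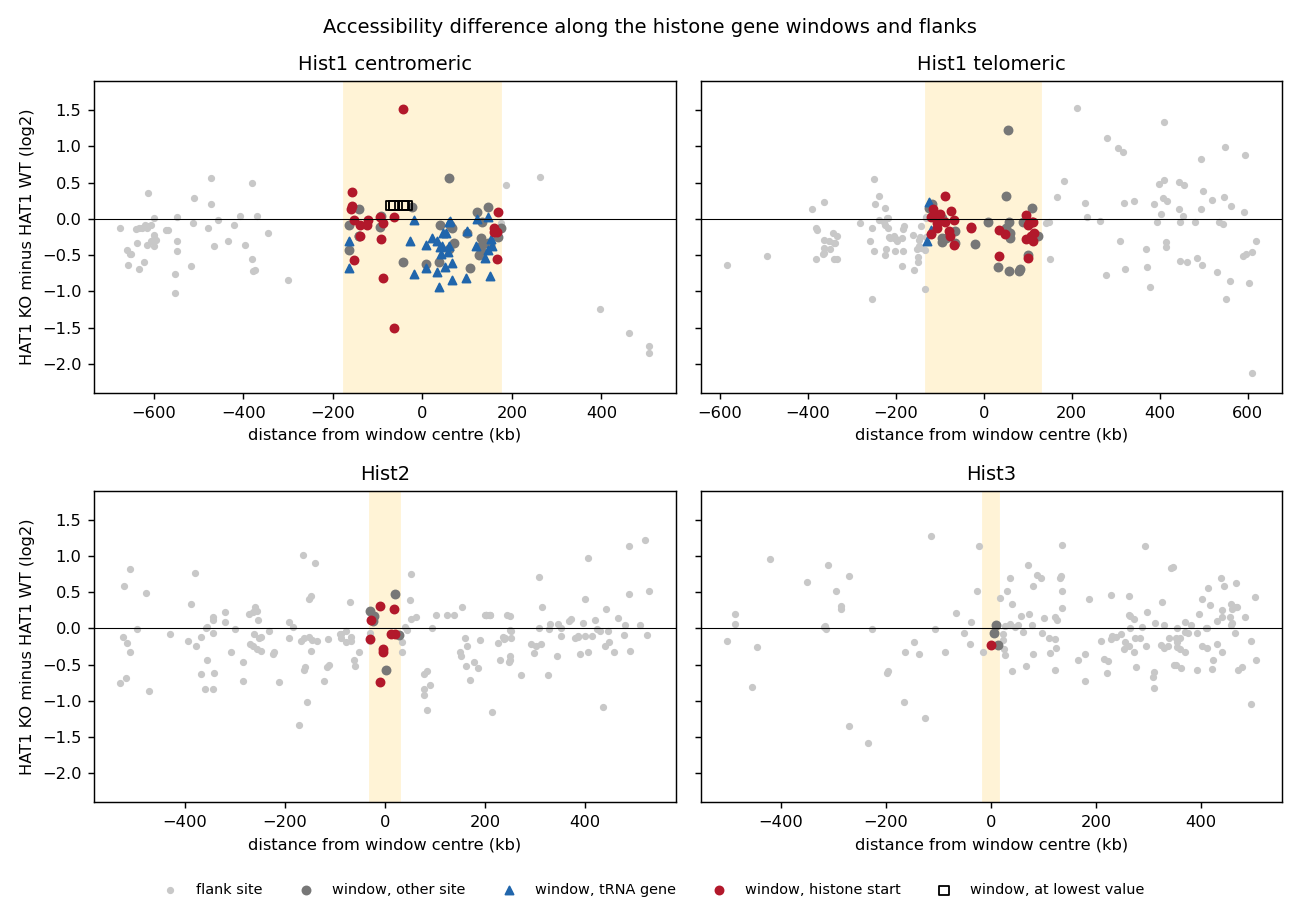
Difference between genotypes (HAT1 KO minus HAT1 WT, log2, vertical axis) at each site against its distance from the window centre in kb, in 1 panel for each of the 4 windows. The window is shaded, flank sites are light grey, sites at histone gene starts are red, sites at tRNA genes are blue triangles, other window sites are dark grey and open squares are sites at the lowest value of the table. In the Hist1 centromeric panel most blue triangles lie right of the window centre and below 0. The pair of red points at 1.51 and -1.51 are the copied genes Hist1h4n and Hist1h4m.

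The medians of the 4 windows ran from -0.24 to -0.08. The median was -0.24 in the Hist1 centromere-proximal window, with 69 of its 90 sites lower and 85.7% of reads kept. It was -0.145 in the telomere-proximal window, with 42 of 56 lower and 94.1% of reads kept. Hist2 had a median of -0.08, with 8 of its 15 sites lower, and Hist3 one of -0.145 over 4 sites. The flanks of Hist1 carried differences of the same sign. The left flank of the centromere-proximal window had a median of -0.22 (49 sites), its right flank one of -1.25 (7 sites), and the left flank of the telomere-proximal window one of -0.28 (63 sites). The right flank of the telomere-proximal window, which holds the Slc17a transporter genes and Carmil1, had a median of 0.00 (60 sites). The flanks of Hist2 had -0.14 and -0.09, and those of Hist3 had -0.01 and -0.05.

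Between the 2 Hist1 windows lies a stretch of vomeronasal receptor genes (Vmn1r), which are used in the sensory neurons of the vomeronasal organ. Across the span of these genes, open sites were sparse, with 15.7 sites per Mb. The right flank of the centromere-proximal window falls into this stretch and had 7 sites. The 4 sites farthest from the window, from near Vmn1r195 to near Vmn1r199, had differences of -1.25, -1.57, -1.76 and -1.85, and the last had 17.8 and 4.92 reads. The site closest to the window, which overlaps a tRNA gene, had 388.0 reads in HAT1+/+ and 372.2 in HAT1-/- cells (-0.06). The lowest difference in any flank was -2.12, at a site of 6.15 and 1.41 reads near Carmil1, and the highest was 1.53, at a site of 3.16 and 9.13 reads near Slc17a1.

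Pooled over the windows, sites at histone gene starts had a median difference closer to 0 than that of the other members. The 64 sites with a midpoint within 500 bp of a histone start had a median of -0.085, with 64.3 reads in HAT1+/+ and 58.3 in HAT1-/- cells, and kept 94.6% of their reads. Over all 14221 sites at protein-coding starts in the table the median was -0.07 and 96.6% of reads were kept, so the starts of histone genes were close to those of other genes by this measure. The 101 members away from the annotated histone starts had a median of -0.27 and kept 85.9% of their reads. The 80 members beyond 3 kb of these starts had a median of -0.305. Centromere-proximal, the starts had -0.02 (-0.09 without sites at the lowest value), against -0.345 beyond 3 kb. The telomere-proximal window had -0.11 against -0.24. Hist2 and Hist3, with few sites, had the opposite order. Hist2 had -0.08 (9 sites) against 0.005 (4 sites), and Hist3 had -0.23 (1 site) against -0.06 (3 sites).

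Of the 65 histone genes, 61 had a site within 500 bp of the start. By the GENCODE start, the 4 genes without one were Hist1h1d, Hist1h1t, Hist3h2ba and Hist1h1c. The start of Hist1h1c lies inside the large site described above, whose midpoint is 587 bp away. For Hist1h1d the start was chr13:23553262 and the stem-loop lay at chr13:23555787, with a site between them at chr13:23554897-23555542 (0.01). For Hist1h2be the start was chr13:23621124 and the stem-loop lay at chr13:23585531, near a site at chr13:23585749-23586177 (-0.17). Both sites were counted as away from histone starts, and the latter as beyond 3 kb. Hist1h1t encodes the testis form of H1. At Hist1h2bq, Hist1h2ao, Hist1h2ap and Hist1h2br the site was at the lowest value of the table in both genotypes. The other 57 genes were served by 46 different sites, since neighbours often share one, of which 32 were lower and 14 higher in HAT1-/- cells and 29 differed by at most 0.2.

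Linker histone H1, which binds the DNA between nucleosomes, had 3 of its 6 genes with a site by this rule. Per kb of site, the HAT1+/+ level was highest at Hist1h1e with 224.1 reads per kb, and lowest at Hist1h1b with 116.0. Hist1h1e went from 159.8 to 148.1 reads (-0.11), Hist1h1a from 85.0 to 74.5 (-0.19) and Hist1h1b from 67.6 to 68.6 (0.02). All 3 differences were within 0.2 of no change.

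H2A and H2B pair into the dimers that flank the tetramer in the nucleosome, and 13 pairs of their genes in the windows start head to head, 173 to 302 bp apart. The count includes the pairs of both pseudogenes, and the shortest distance and the highest level are those of Hist3h2a with Hist3h2bb-ps. Each of the 13 had a site over the stretch between the starts, 2 of them at the lowest value. The other 11 had 105.4 to 280.1 reads in HAT1+/+ and 95 to 238.9 in HAT1-/- cells, a median difference of -0.13, and a range from -0.23 to 0.14, with 9 lower and 2 higher. The promoter of Hist1h2ac and Hist1h2bc printed above had 233.9 reads in HAT1+/+ and 209.4 in HAT1-/- cells (-0.16), and 391.9 reads per kb in HAT1+/+ cells, the highest of both classes. CCAAT boxes were present between the starts in all 13 pairs, 2 to 5 in each, and the octamer in 6 of them. The 2 pairs with higher levels were Hist1h2ai with Hist1h2bl, from 121.9 to 134.4 reads (0.14), and Hist1h2ag with Hist1h2bj, from 162.0 to 173.6 (0.10).

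Over the class, the 15 measured H2A sites had a median difference of -0.13 and the 15 H2B sites one of -0.08, with most sites in both lists because of the shared promoters. The H2A gene with the lowest level per kb was Hist2h2aa2, with 64.5 reads per kb, and the H2B gene with the lowest was Hist2h2be, with 159.7 at the site it shares with the H2A gene Hist2h2ac. Hist1h2ab, a single H2A gene in the telomere-proximal window, had the lowest difference of the class, from 31.1 to 21.4 reads (-0.54).

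**Figure D2:**
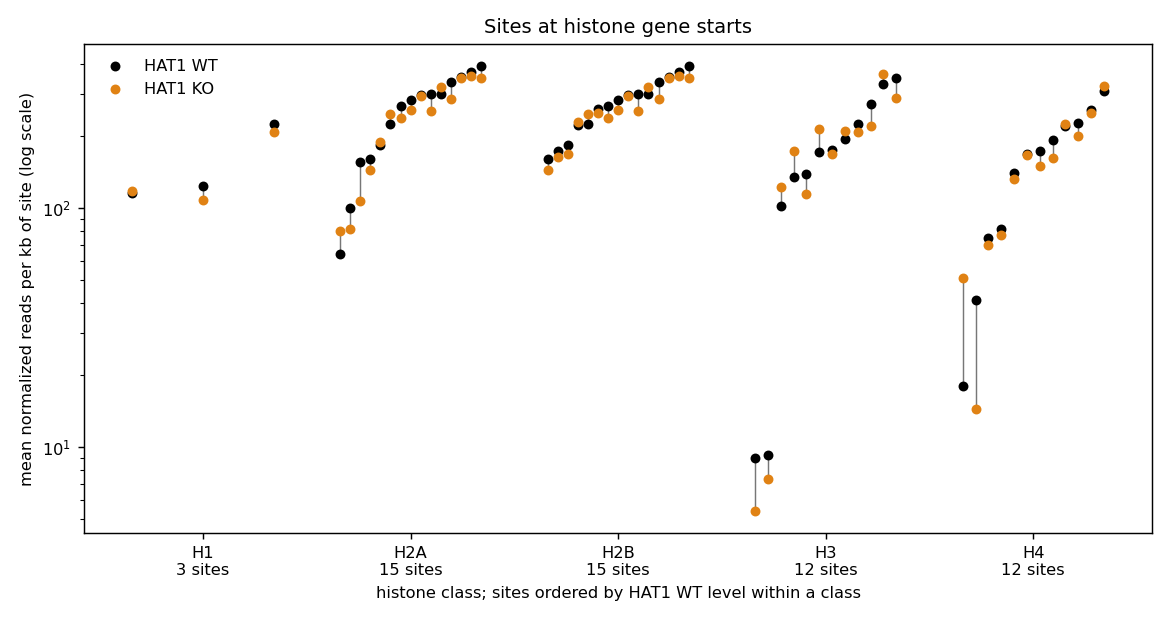
Mean normalized reads per kb of site (vertical axis, log scale) at the sites of histone gene starts, by class and ordered within a class by the HAT1 WT level, with HAT1 WT in black, HAT1 KO in orange and a line joining the values of a site. Sites shared by a head-to-head pair stand under both H2A and H2B, sites at the lowest value are left out, and the long lines at the left of H4 are the copied genes Hist1h4n and Hist1h4m.

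H3 and H4 form the tetramer at the centre of the nucleosome, and new H4 is the substrate of HAT1. The 12 H3 genes each had a site, with a median of -0.09, 7 lower and 5 higher. Their levels per kb in HAT1+/+ cells ran from 9.01 at Hist2h3c2 to 350.4 at Hist1h3i, which went from 84.4 to 69.6 reads (-0.28). The differences of H3 genes had both signs and ran from -0.74, at the copied gene Hist2h3c2, to 0.37. Hist1h3h went from 29.9 to 38.6 reads (0.37), Hist1h3e from 91.1 to 113.0 (0.31) and Hist2h3b from 30.5 to 36.8 (0.27), whereas Hist1h3a went from 68.6 to 55.7 (-0.30) and Hist1h3c from 35.8 to 29.4 (-0.28). Only 4 of the 12 sites were within 0.2 of no change, against 13 of the 15 of H2B, and the H3 sites had fewer reads, a HAT1+/+ median of 57.4 against 168.9.

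The 12 H4 genes also each had a site, with a median of -0.085, 9 lower and 3 higher. Hist1h4f had the highest HAT1+/+ level per kb, 307.3, and went from 116.2 to 121.9 reads (0.07). Hist1h4a went from 176.1 to 170.1 (-0.05), Hist2h4 from 190.0 to 179.8 (-0.08), Hist1h4c from 168.9 to 146.0 (-0.21) and Hist1h4b from 97 to 82.1 (-0.24). The extremes of the class, and of all members, were Hist1h4m, from 18.4 to 6.45 reads (-1.51), and Hist1h4n, from 5.17 to 14.7 (1.51).

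Hist1h4m and Hist1h4n are copies of each other, as are the genes around them. A local alignment found chr13:21792963-21812409 again in reverse orientation at chr13:21831532-21850923, with 98.9% identity over 19476 aligned columns. Reads from such copies cannot be placed on one of them by sequence alone where they are identical, and how the pipeline treated such reads was not given in the sources used here. In the Hist1h4m site 12.5% of the 50-base words occurred once in the genome, and in the Hist1h4n site 17.2%. With the 2 measured sites of each copy added up, the copy of Hist1h4m went from 28.2 to 16.4 reads (-0.78) and that of Hist1h4n from 21.6 to 25.6 (0.24). Both copies together went from 49.8 to 41.9 reads (-0.25).

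Of the members, 6 sites were at the lowest value of the table in both genotypes, 0.655 reads in HAT1+/+ and 0.742 in HAT1-/- cells. All 6 lie in this inverted copy, and none of their 50-base or 100-base words was unique. They include the head-to-head promoter printed above for Hist1h2ao with Hist1h2bq and Hist1h2ap with Hist1h2br. Their difference of 0.18 is that between the 2 lowest values. It was left out of the gene counts, but medians and counts of sites include it unless stated. The lowest values were held by 933 of all sites (0.406%), by 3.64% of the members and by 11 flank sites.

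A second inverted copy lies in Hist2, where chr3:96238462-96240573 recurs at chr3:96245258-96247365 with 99.6% identity. It holds Hist2h3c2 with Hist2h2aa2 and Hist2h2aa1 with Hist2h3c1. Hist2h3c2 went from 8.11 to 4.86 reads (-0.74) and Hist2h3c1 from 8.82 to 7.01 (-0.33), while Hist2h2aa2 went from 35.3 to 43.7 (0.31) and Hist2h2aa1 from 72.5 to 59.3 (-0.29). Added over both copies, the reads went from 124.7 to 114.9 (-0.12). In all, 15 of the 165 members had under 50% unique 50-base words, and the other 150 had a median difference of -0.185.

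**Figure D3:**
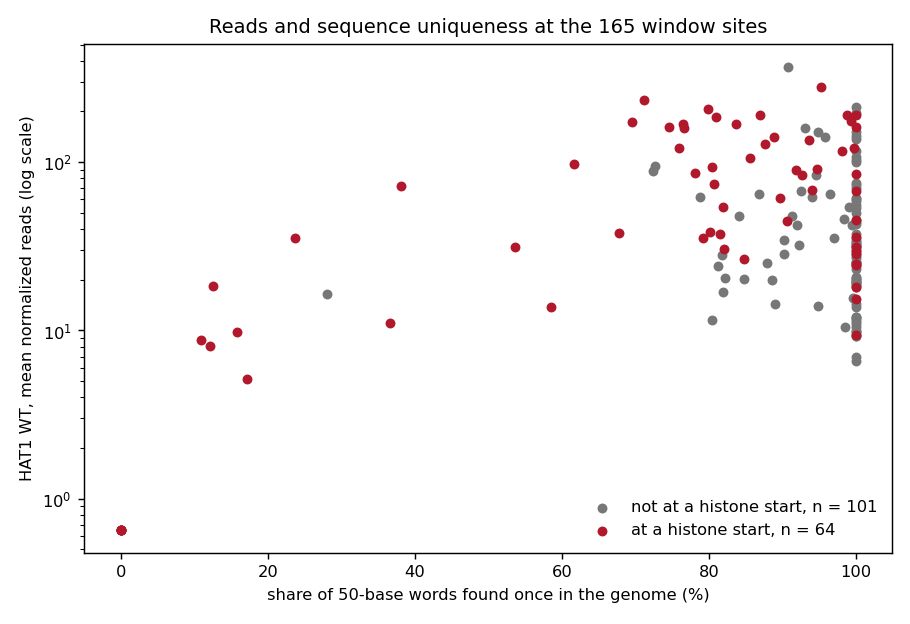
HAT1 WT mean normalized reads (vertical axis, log scale) of the 165 window sites against the share of their 50-base words that occur once in the genome (horizontal axis, %), with sites at histone starts in red and others in grey. The 6 sites with no unique word lie on one point at the lowest value of the table, and no site with under 50% unique words passes 72.5 reads.

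Of the 101 members away from histone starts, 36 lay at tRNA genes. This split was made after the values of the windows were seen. All 36 tRNA genes of the windows in the RefSeq annotation, 33 of them in the centromere-proximal window and 3 in the telomere-proximal window, overlapped a site, each its own. The median of these 36 sites was -0.37, with 33 lower, 2 higher and 1 equal, and the reads kept were 78.2%. At or below -0.58 lay 10 of the 36 (27.8%), against the background of 15.0%, and none was at or above 0.58 or at or below -1. The 65 members at neither a histone start nor a tRNA gene had a median of -0.17 and kept 90.7% of their reads.

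The site of n-TDgtc11, a tRNA gene for aspartic acid, went from 20.5 to 10.7 reads (-0.94). That of n-TSaga8, for serine, went from 62.2 to 34.5 (-0.85), and that of n-TKttt22, for lysine, from 19.4 to 11.1 (-0.81). At n-TDgtc12, whose gene has the same sequence as n-TDgtc11, the site had the highest level per kb among the tRNA sites, 398.7 reads per kb in HAT1+/+ cells, and went from 158.7 to 104.0 reads (-0.61). The highest difference was at n-TRtcg1, for arginine, in the telomere-proximal window, from 35.3 to 41.4 reads (0.23). Genes with one anticodon differed widely, and the 4 serine tRNA genes with the anticodon AGA had -0.85 at n-TSaga8, -0.38 at n-TSaga5, -0.19 at n-TSaga6 and -0.03 at n-TSaga1. The B box core was found in 31 of the 36 genes, and 13 of the 36 shared their whole sequence with another of them. The sites around the genes were mostly unique, with 78.9% to 100% of 50-base words unique.

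**Figure D4:**
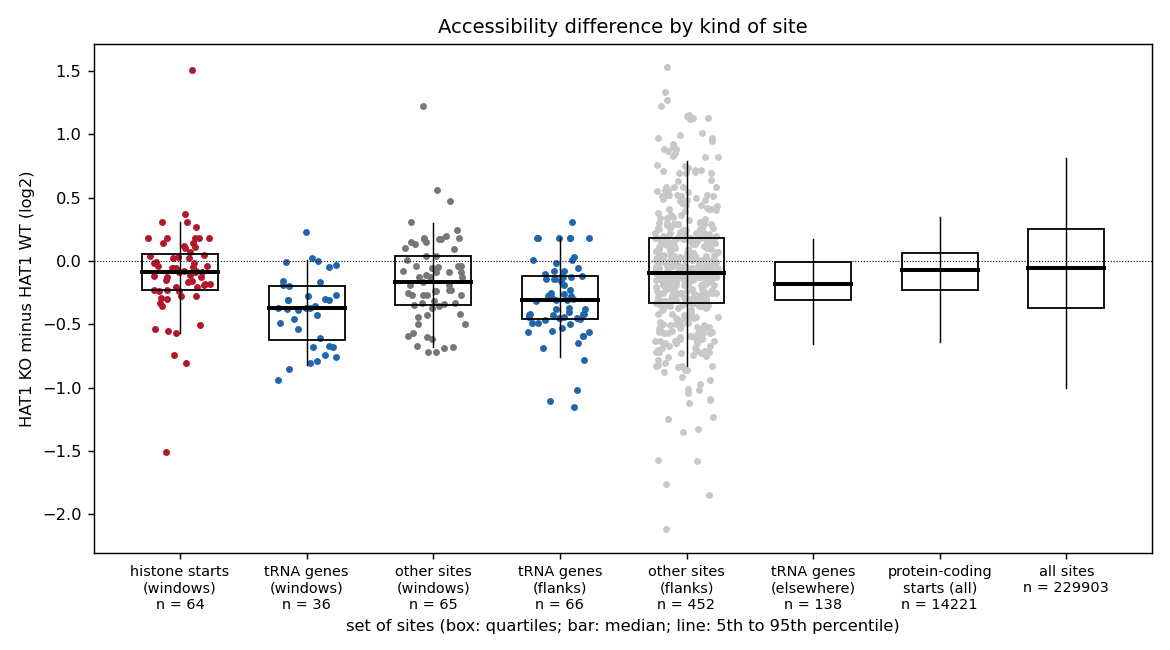
Difference between genotypes (HAT1 KO minus HAT1 WT, log2, vertical axis) for 8 sets of sites, with points for single sites in the first 5 sets, boxes for quartiles, bars for medians and lines spanning the 5th up to the 95th percentile. The bars of the tRNA sets lie at -0.37 in the windows, -0.31 in the flanks and -0.18 elsewhere, and those of histone starts and all protein-coding starts at -0.085 and -0.07. The flank tRNA set includes 6 sites at the lowest value, without which its median is -0.375.

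The lower tRNA sites were not limited to the windows. The 66 flank sites at tRNA genes had a median of -0.31, and the other 452 flank sites one of -0.095. Of the 66, 6 were at the lowest value of the table, and the remaining 60 had a median of -0.375. No tRNA site of the windows was at the lowest value. In the left flank of the telomere-proximal window, 31 tRNA sites had a median of -0.37, and in that of the centromere-proximal window 14 had one of -0.285 with all 14 lower. The 138 tRNA sites outside the windows and flanks had a median of -0.18, with 104 lower, and a higher level, 147.6 reads at the median in HAT1+/+ cells against 38.7 for those of the windows. Sites were therefore also set side by side by their mean reads over both genotypes. From 16 to 32 reads, the medians were -0.365 for 10 window, -0.31 for 10 flank and -0.395 for 16 other tRNA sites, where all sites of that level had -0.08. From 32 to 64 reads they were -0.31 for 12 window, -0.42 for 21 flank and -0.295 for 18 other tRNA sites, and all sites had -0.10. From 64 reads up to the next doubling they were -0.28 for 4 window, -0.38 for 15 flank and -0.21 for 25 other tRNA sites, and all sites had -0.11. In these 3 ranges all the tRNA medians were below that of all sites. Above them, 3 window sites had -0.38, 8 flank sites -0.125 and 72 other sites -0.12, and from 8 to 16 reads 7 window sites had -0.76, 6 flank sites -0.775 and 3 other sites -0.03. At or below -0.58 lay 27.8% of the window tRNA sites, 12.1% of the 66 flank and 8.70% of the 138 other tRNA sites. The background for all sites is 15.0%, and these shares are not matched by level. Whether tRNA sites of the windows differ from other tRNA sites was not tested.

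The tRNA genes of the centromere-proximal window lie mostly in a stretch of 201.8 kb without a histone gene start, between Hist1h2br and Hist1h2ah. It held 52 sites away from histone starts, 31 of them at tRNA genes, with a median of -0.36, 45 lower and 79.0% of reads kept. The 21 sites in it that are not at tRNA genes had a median of -0.27. By contrast, the 22 sites up to Hist1h2bp, on the side of the window where histone genes are dense, had a median of -0.09 and kept 94.0% of their reads. Within the stretch without histone starts lie 2 protein-coding genes with a site at the start. Zfp184, a zinc finger gene, went from 196.7 to 156.5 reads (-0.33), and Pom121l2, named for its likeness to a nuclear pore protein, went from 61.0 to 38.1 (-0.68). In the telomere-proximal window Hfe, a regulator of iron uptake, went from 43.1 to 37.8 reads (-0.19). Trim17 shares the Hist3h2a site, which went from 280.1 to 238.9 reads (-0.23). Prss16 and Trim38 had no site within 500 bp of the start.

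In the telomere-proximal window, the lowest differences were away from gene starts. A site 2123 bp from the predicted gene Gm11338 went from 30.1 to 18.3 reads (-0.72), one 2445 bp from the start of Hfe from 9.65 to 5.86 (-0.72), and one 4107 bp from Gm11338 from 12.0 to 7.41 (-0.69). The highest was 1.22, at a site of 10.5 and 24.4 reads, 4640 bp from the start of Hfe. The next were Hist1h3e and a site 2537 bp from Hist1h4c, both at 0.31. In the centromere-proximal window the highest after Hist1h4n were a site of 6.92 and 10.2 reads (0.56) and Hist1h3h (0.37). Apart from tRNA sites and Pom121l2, no member past 0.58 in either direction had more than 30.1 reads in HAT1+/+ cells. Histone starts past it were Hist1h4m, Hist1h4n, Hist2h3c2 and a second site of Hist1h2bp, of 13.8 and 7.89 reads (-0.81).

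The other sites of Hist2 ran from -0.57 to 0.47. At Hist2h2ac and Hist2h2be the shared site went from 105.4 to 95 reads (-0.15) and a smaller one beside it from 18 to 19.6 (0.12). A site of 11.5 and 13.5 reads at the window's edge had 0.24, and 2 sites between Hist2h2be and Hist2h3c2 had 55.3 and 59.3 reads (0.10) and 35.3 and 39.7 reads (0.17). The site in the gap after the copied genes went from 11.2 to 7.57 reads (-0.57). Near Hist2h3b and Hist2h2bb, one site went from 9.99 to 13.8 reads (0.47) and that of Hist2h2bb from 162.0 to 153.3 (-0.08). The most distal site, away from gene starts, went from 213.8 to 200.9 reads (-0.09). The 3 Hist3 sites besides that of Hist3h2a went from 150.1 to 144.0 reads (-0.06), from 20.4 to 21 (0.04) and from 9.92 to 8.46 (-0.23). Hist2h2ab, which starts just outside the Hist2 window, had 63.6 and 56.5 reads (-0.17), and Hist4h4, the H4 gene outside the clusters, had 179.8 and 159.8 (-0.17). The germ line genes Hist1h2ba and Hist1h2aa had no site at the start.

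**Figure D5:**
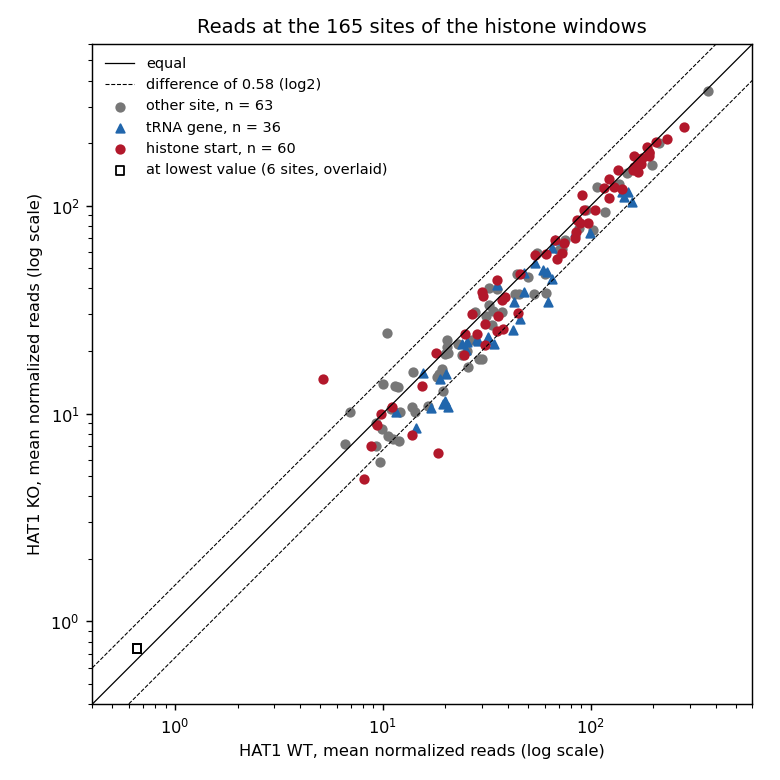
HAT1 KO (vertical) against HAT1 WT (horizontal) mean normalized reads of the 165 window sites on log axes, with the line of equality solid and differences of 0.58 on the log2 scale dashed. Red points at histone starts follow the line of equality at high reads, blue triangles at tRNA genes lie mostly below it, and the 6 sites at the lowest value share the open square.

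The level of a site bears on its difference in the whole table, since low sites spread widely, and the members were compared with all sites at the same level. From 8 to 16 mean reads, the 30 members above the lowest value had a median of -0.235, against -0.04 for all sites, and from 16 to 32 reads the 38 members had -0.285 against -0.08. From 32 to 64 reads the 36 members had -0.13 against -0.10, and in the next doubling the 26 members had -0.17 against -0.11. In the highest range, above it, 25 members had -0.09 and the 17 histone starts among them -0.08, against -0.06 for all sites. The members' median was thus below that of all sites in each of these 5 ranges, by less from 32 reads upward.

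Most of the listed genes that act on histone genes and their RNA had a site at the start, and none of those with a site passed 0.58 in either direction. Pou2af1, Nfyc, Zfp473 and Cpsf3 had no site within 500 bp of the start. The nearest sites to these starts had differences of -0.77, -0.17, -0.12 and -0.19. Over all sites at protein-coding starts 6.27% were at or below -0.58 and 2.04% at or above 0.58, both less than the 15.0% and 10.1% over all sites. Of 16 genes of histone gene transcription, 14 had a site, 6 lower and 8 higher, from -0.18 at Nfya, a subunit of the CCAAT-binding factor NF-Y, to 0.17 at Tbp, the TATA-binding protein. Npat had 754.8 and 820.3 reads (0.12), and Hinfp, which binds H4 promoters, 404.5 and 427.6 (0.08). Of 16 genes of histone mRNA processing, 14 had a site, 9 lower and 5 higher, from -0.28 at Ncbp1, of the cap-binding complex, to 0.32 at Cstf2t, of the cleavage stimulation factor. Slbp, the stem-loop binding protein, had 596.3 and 584.1 reads (-0.03). Of 16 listed replication-independent histone genes, with the annotated pseudogene H3f3c among them, 9 had a site, 7 lower and 2 higher. They ran from -0.27 at H2afy2, which encodes a macroH2A, to 0.04 at H2afz (H2A.Z) and H2afj. H3f3b and H2afy had none by this rule. The nearest sites, 2595 and 843.5 bp away, had 227.5 and 235.6 reads (0.05) and 81.0 and 79.3 reads (-0.03).

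Across the series, the sites summed to 7893424 normalized reads in HAT1+/+ and 7479071 in HAT1-/- cells, and the depth of each line is unknown. Of 10 fibroblast markers, 8 had a site within 500 bp of the start, with a HAT1+/+ median of 185.6 reads (36.0 to 626.0). Of the 8, 6 were lower and 2 higher in HAT1-/- cells, from -0.32 at Pdgfrb to 0.78 at Col3a1. Col1a2 and Pdgfra had none. Their nearest sites, 740.5 and 975 bp away, had 174.9 and 188.7 reads (0.11) and 29.2 and 36.0 reads (0.3). Of 10 markers of blood, endothelial, epithelial, neural and muscle cells, 5 had a site within 500 bp of the start, with a HAT1+/+ median of 11.8 reads (7.36 to 27.1). The blood marker Ptprc had 8.28 and 13 reads (0.65) and the endothelial marker Cdh5 11.8 and 21.9 (0.89), whereas the neural marker Sox2 had 22.6 and 13.2 (-0.78). Spi1, Pecam1, Neurod1, Myod1 and Myog had no site by this rule, but the nearest sites of Spi1 and Pecam1, 728 and 652 bp away, had 49.9 and 75.1 reads (0.59) and 30.9 and 32.2 reads (0.06). The part of these markers in the differences at the histone clusters was not tested.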

How the data were processed

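Per the labels and the study's methods, the authors aligned ATAC-Seq reads of 3 HAT1 WT and 3 HAT1 KO lines to mm10 with Bowtie2 within the ENCODE pipeline. MACS2 was their peak caller, and DiffBind 2.14.0 gave the comparison of genotypes. The deposited values used are log2 mean normalized reads of each genotype per site. How DiffBind normalized and which sites it kept are not given in the sources used here. The columns of the authors' own comparisons (fold change, p-value, FDR) and the mean over both genotypes were not used. The 2 columns used are means over the lines of a genotype, so no SD or test was computed, and depth per line is unknown.

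Differences were taken between the 2 log2 means as deposited, and reads are 2 to that power. Sites were placed by their midpoints (4 windows, 500 kb flanks), and a site within 500 bp of a gene start in GENCODE vM21 was given to that gene (the one with most reads where several were). tRNA genes, promoters and sequence came from RefSeq (GRCm38.p6), and all 65 histone genes matched a RefSeq gene. Unique words were 50-base and 100-base words that occur once on either strand of the assembled chromosomes. Copies were aligned with blastn 2.17.0+ and Biopython 1.88, and Python 3.11.15, pandas 2.3.3, numpy 2.4.6 and matplotlib 3.10.9 were used. Window members, gene lists and the split by tRNA gene were chosen with earlier results of these data known. Named sites are the 3 lowest and 3 highest of each Hist1 window, every Hist2 and Hist3 site, the highest site of all, the highest and lowest gene of each class per kb, other genes of the windows with a site at the start, the extremes of the flanks and of each list, and Hat1. Other H1, H3 and H4 genes, the copied genes and tRNA sites were added for their place in the text after their values were seen. A check of the code gave back known differences put on the real site positions with little added noise, and it does not bear on the reported values.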

Additional observations from a re-analysis of the deposited data

How the results depend on the processing

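No paired analysis was possible because the deposited columns used are genotype means with no values per line, and for the same reason no line could be left out. Over 75 alternatives to 7 results, 72 stayed within the limits set, 3 moved beyond them and none reversed. The limits were 0.1 (log2) for a median, the 95% binomial interval for a share and 1.5 times for a count or ratio. Some of the 72 could not move, since flank size does not enter window values and a pseudocount changes no sign. The limit of 0.1 is wider than the median at histone starts (-0.085) and than the gap between windows (-0.17) and flanks (-0.12). The binomial interval treats sites as independent. With members beyond 3 kb of a histone start alone the median of the windows was -0.305. With differences centred on the median of all sites the share of lower members was 63.6%. With the Hist1 centromere-proximal window left out the median of the tRNA sites was -0.16, from 3 sites. The median of the windows ran from -0.305 to -0.085, that of the flanks from -0.15 to -0.06, and the ratio of site densities from 1.39 to 2.11 around 1.82. The median at histone starts ran from -0.11 to -0.025, the last with centring. The number of histone genes with a site at the start ran from 55 to 62. Without tRNA sites, the windows had -0.11 and the flanks -0.095. The choices on tRNA genes, unique words and lowest values were added after the data were seen. Depth limits low sites most, and the median HAT1+/+ level over the table was 14.5 mean normalized reads.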
